A study of Mus musculus with 3 samples.

Results

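Cluster 6 of the olfactory bulb nuclei is a group of inhibitory neurons for which Hgf, Trh, Prss12 and Kcnc2 were given as marker genes. Its members were taken from the cluster number in the table of retained nuclei that the authors deposited, and they are 1411 of 31703 nuclei. It is described here beside the other 7 clusters treated as inhibitory neurons (0, 1, 3, 7, 8, 10 and 12), which hold 19334 nuclei. The nuclei came from the olfactory bulbs of 3 adult male C57Bl/6 mice. All had received retroAAV-CAG-H2B-GFP, a retrogradely transported virus that puts a green fluorescent protein into nuclei under a promoter active in most cell types, at several sites of the piriform cortex (PCx) and the anterior olfactory nucleus (AON). Nuclei with green fluorescence were sorted to enrich projection neurons, and 1 droplet-based library was made per mouse, so that the study has no untreated group. The inhibitory nuclei are therefore those that passed a gate set for another cell class, and the share of a cluster is a share of sorted nuclei and not of the tissue.

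Inhibitory neurons of the olfactory bulb release GABA, mostly from dendrites, and shape the output of mitral and tufted cells. Those of the glomerular layer, the periglomerular cells, include a group that makes both GABA and dopamine and is known for tyrosine hydroxylase, while granule cells of the deep layers have no axon. Hgf encodes hepatocyte growth factor, a secreted ligand of the receptor Met; Trh encodes the precursor of thyrotropin-releasing hormone; Prss12 encodes neurotrypsin, a secreted protease that cleaves agrin; and Kcnc2 encodes Kv3.2, a potassium channel subunit of neurons that fire fast.

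The markers lie on different chromosomes (GENCODE M21 annotation, GRCm38). Hgf is a protein-coding gene at chr5:16553495-16620152 on the plus strand, Trh one at chr6:92242061-92244650 on the minus strand, Prss12 one at chr3:123446913-123506597 on the plus strand, and Kcnc2 one at chr10:112271121-112467024 on the plus strand. Th, the gene of tyrosine hydroxylase, lies at chr7:142892752-142931128 on the minus strand, and Pax6, a homeobox factor of dopaminergic bulb neurons, at chr2:105668900-105697364 on the plus strand. Of these, Prss12 and Pax6 overlap genes on the opposite strand (Gm35065 and Pax6os1). Whether counting used the strand is not given in the sources used here, so that reads of such pairs may not have been told apart.

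Because the 4 genes Hgf, Trh, Th and Pax6 carry much of what follows, the 250 bases before a RefSeq start of each are shown (GRCm38.p6, 5′ to 3′ on the strand of the gene). The windows are chr5:16553245-16553494 (Hgf, first of its 2 listed starts), chr6:92244651-92244900 (Trh), chr7:142899996-142900245 (Th) and chr2:105668646-105668895 (Pax6, first of 2 starts). Capitals mark the letters TGACGTCA, the palindromic cyclic AMP response element, and TATAA, both searched on both strands.
Hgf promoter: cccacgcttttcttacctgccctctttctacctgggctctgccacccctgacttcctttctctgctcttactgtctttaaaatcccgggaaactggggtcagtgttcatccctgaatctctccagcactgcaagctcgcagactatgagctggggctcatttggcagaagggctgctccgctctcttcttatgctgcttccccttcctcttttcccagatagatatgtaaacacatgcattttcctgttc
Trh promoter: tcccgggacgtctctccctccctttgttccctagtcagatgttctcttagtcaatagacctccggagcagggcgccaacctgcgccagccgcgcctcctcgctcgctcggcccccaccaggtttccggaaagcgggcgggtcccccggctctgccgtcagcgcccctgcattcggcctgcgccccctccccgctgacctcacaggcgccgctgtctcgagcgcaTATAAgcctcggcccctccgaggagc
Th promoter: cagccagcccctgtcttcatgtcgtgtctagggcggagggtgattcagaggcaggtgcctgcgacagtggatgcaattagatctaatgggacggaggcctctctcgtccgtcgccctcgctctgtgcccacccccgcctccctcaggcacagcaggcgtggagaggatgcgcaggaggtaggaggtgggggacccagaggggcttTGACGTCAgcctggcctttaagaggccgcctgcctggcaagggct
Pax6 promoter: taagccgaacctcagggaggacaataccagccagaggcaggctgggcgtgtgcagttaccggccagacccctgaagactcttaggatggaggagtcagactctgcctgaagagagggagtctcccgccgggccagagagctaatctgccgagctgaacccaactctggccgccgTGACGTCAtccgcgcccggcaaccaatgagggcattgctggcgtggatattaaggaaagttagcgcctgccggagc
TATAA begins at position -26 from the start of Trh. TGACGTCA begins at position -45 from the start of Th and at position -76 from that of Pax6, and neither run of letters is in the Hgf window. Over all 32851 promoter windows of 300 bases (250 before to 50 after a start), 1.79% hold TGACGTCA and 24.9% hold TATAA. The windows of Prss12, Kcnc2, Drd2, Stac and Gal hold neither. Those of the first listed starts of Ddc and Slc6a3 hold TATAA at positions -67 and -181. These are matches of letters and no binding was measured.

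Cluster 6 was present in all 3 mice, with its highest share in mouse 1. It held 309 nuclei of mouse 1, 915 of mouse 2 and 187 of mouse 3, which is 5.29% (exact 95% interval 4.73 to 5.89), 4.34% (4.06 to 4.62) and 3.93% (3.40 to 4.53) of the retained nuclei. The interval of mouse 1 did not overlap those of mice 2 and 3. Of the nuclei of the 8 clusters it was 8.39% (7.51 to 9.33), 6.37% (5.98 to 6.78) and 6.93% (6.00 to 7.95), where the intervals of mice 1 and 3 overlapped and mouse 2 was the lowest. The mean was 4.52 ± 0.694% (SD, n = 3 mice) of the retained nuclei and 7.23 ± 1.04% of those of the 8 clusters. The intervals cover counting error only. The nuclei were among the deeper ones, with medians of 9366, 9583 and 10466 UMIs (counted molecules), and the mean of these medians, 9805 ± 583, was second among the 8 clusters to that of cluster 3 (10311 ± 1904). No barcode of cluster 6 was shared between mice within the cluster, and 3, 1 and 4 barcodes of cluster 6 occurred in another cluster of another mouse for the pairs of mice 1 and 2, 1 and 3, and 2 and 3.

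The label was checked against the genes that define inhibitory neurons. Levels are in CPM, the UMIs of a gene scaled to the total of all UMIs summed over the nuclei of a mouse. Gad1 and Gad2, the GABA-synthesising enzymes, had means of 617 and 798 CPM in cluster 6, and Slc32a1, the vesicular GABA transporter, had a mean of 221, against 688, 259 and 204 in the other 7 clusters. The 5 projection neuron markers (Slc17a7, Slc17a6, Tbx21, Cdhr1, Eomes) summed to 39.2 to 56.7 CPM, against 939 in cluster 2, where they were highest. Markers of astrocytes summed to 33.1 to 49.6 CPM (3274 in cluster 9), of oligodendrocytes to 39.5 to 80.4 (21422 in cluster 16), of microglia to 35.1 to 36.7 (3967 in cluster 20) and of vessels to at most 12.7 (2545 in cluster 18). Each of these lists has 5 genes, of which 2, 3, 3 and 4 were under 5 CPM in cluster 6.

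The 4 marker genes were higher in cluster 6 than in any of the other 20 clusters with at least 10 nuclei in each mouse. Since the clusters had been formed by the authors on the same counts, all comparisons between clusters below describe the size of a difference against the spread between mice and are given without p-values. Hgf was at 166, 146 and 138 CPM in mice 1, 2 and 3 (150 ± 14.5) and at 0.790 CPM on average in the other 7 clusters. The highest of these was cluster 8 at 2.69 ± 1.43, and cluster 12 had no Hgf UMI, which allows up to 0.484 CPM (3 counts over the UMIs of the cluster). Outside the inhibitory clusters, Hgf reached 13.96 CPM in cluster 9, the cluster with the highest astrocyte markers. The ratio of cluster 6 to the mean of the 7 clusters was 137, 161 and 560 in the 3 mice, and its mean of 286 became 149 without mouse 3.

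Trh varied more between mice than the other markers, with 981, 757 and 614 CPM (784 ± 185). No other library of the 8 clusters came near these values. The next of the 8 clusters was cluster 7 at 58.2 ± 0.238 CPM, followed by cluster 0 at 27.2 ± 7.24, cluster 10 at 23.0 ± 12.7 and cluster 8 at 16.8 ± 11.1, and the last 3 overlapped. Prss12 was at 201, 201 and 164 CPM (189 ± 21.2), and the other 7 clusters had means between 0.608 in cluster 7 and 5.43 in cluster 10. The ratio for Prss12 was 155, 49.6 and 74.3 in the 3 mice, and its mean of 92.9 became 61.9 without mouse 1. Kcnc2 was less restricted. It stood at 3354, 2865 and 3118 CPM (3112 ± 244) in cluster 6, at 662 ± 268 in cluster 8 and at 372 ± 15.4 in cluster 7, down to 87.0 ± 26.6 in cluster 3. Outside the clusters compared, Kcnc2 reached 821 CPM in cluster 17, which also carried Gad1, and 819 in cluster 14, so that the ratio to the highest other cluster was 3.79.

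**Figure D1:**
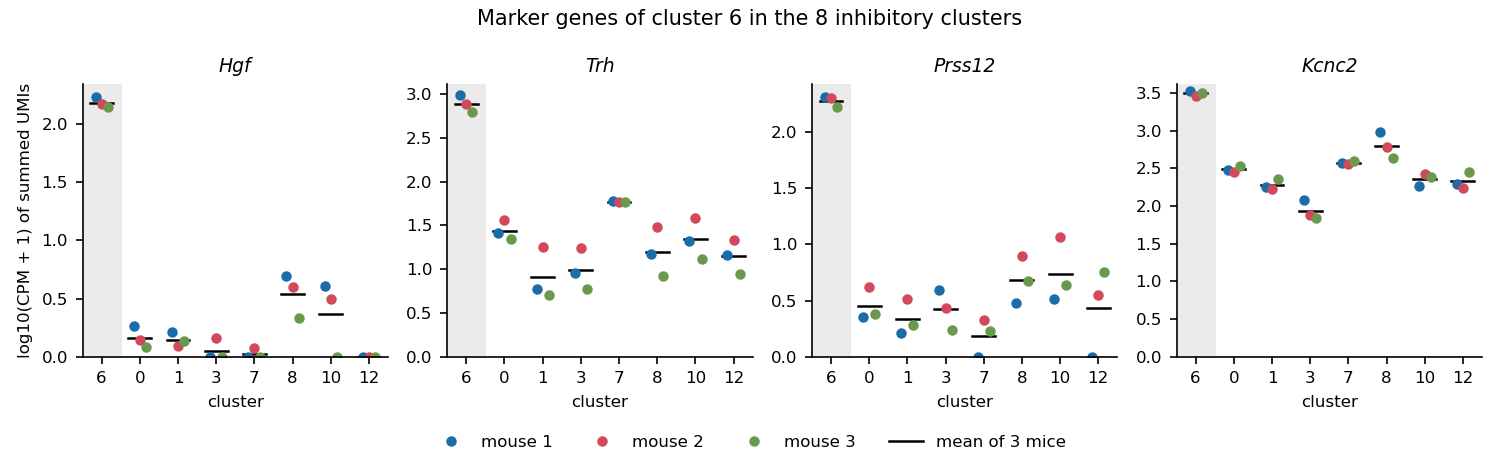
Level of each marker gene per mouse (coloured points, log10 of CPM + 1) in the 8 inhibitory clusters, with the mean of 3 mice as a bar and cluster 6 shaded. All 3 mice lie above every other library in cluster 6 for each gene; for Kcnc2 the nearest cluster, 8, has a mean of 662 CPM against 3112.

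At the level of single nuclei Kcnc2 and Trh were seen in most of the cluster, and Prss12 and Hgf in a minority at equal depth. Each nucleus was thinned to 3000 UMIs so that depths were equal, which left out 5, 13 and 3 nuclei of cluster 6 and kept 1390. Kcnc2 then had a UMI in 93.6 ± 1.23% of nuclei, Trh in 59.3 ± 2.88%, Prss12 in 38.1 ± 3.82% and Hgf in 32.2 ± 1.79% (95.6%, 71.2%, 61.0% and 57.2% without thinning). Non-neuronal clusters give the level seen where the genes should be absent. Over the clusters highest in the markers of astrocytes (9), oligodendrocytes (16), vessels (18), oligodendrocyte precursors (19) and microglia (20), the mean shares at the same thinned depth ran from 2.38% to 13.1% for Kcnc2, from 1.90% to 13.98% for Trh, from 0.362% to 3.04% for Prss12 and from 0.170% to 3.25% for Hgf. Their median depth before thinning ran from 3133 UMIs in cluster 20 to 8471 in cluster 19, against 9805 in cluster 6, as means over mice, and some held few nuclei (5 to 70 per mouse after thinning in cluster 20). A share of 38.4 ± 3.20% of cluster 6 nuclei had UMIs of 3 or all 4 markers and 2.20 ± 0.513% had none. In the other 7 clusters, nuclei with 3 or 4 markers made up between 0% and 0.365%, the latter in cluster 10.

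Against the mean of the other 7 clusters, cluster 6 differed in a broad set of genes. Of 14780 genes with enough counts, 1051 were higher in cluster 6 (7.11% of the genes tested) and 753 lower (5.09%), by edgeR with an absolute log2 fold change above 1 and an adjusted p below 0.05. More genes were lower when the nuclei of the other 7 clusters were summed per mouse, as given under the dependence on processing. For 319 of the higher genes (2.16% of those tested) all 3 libraries of cluster 6 lay above all 21 others, and for 107 of the lower genes (0.724%) all 3 lay below. A narrower set of 165 genes was higher, and 63 lower, against every one of the 7 clusters taken singly. The fold change is the difference from the average of the 7 clusters on the log2 scale, which for genes high in only 1 other cluster differs from the ratio of mean CPM. Below, a level given after "against" is the mean CPM of these 7 clusters, and overlap is with their 21 libraries unless another cluster is named.

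**Figure D2:**
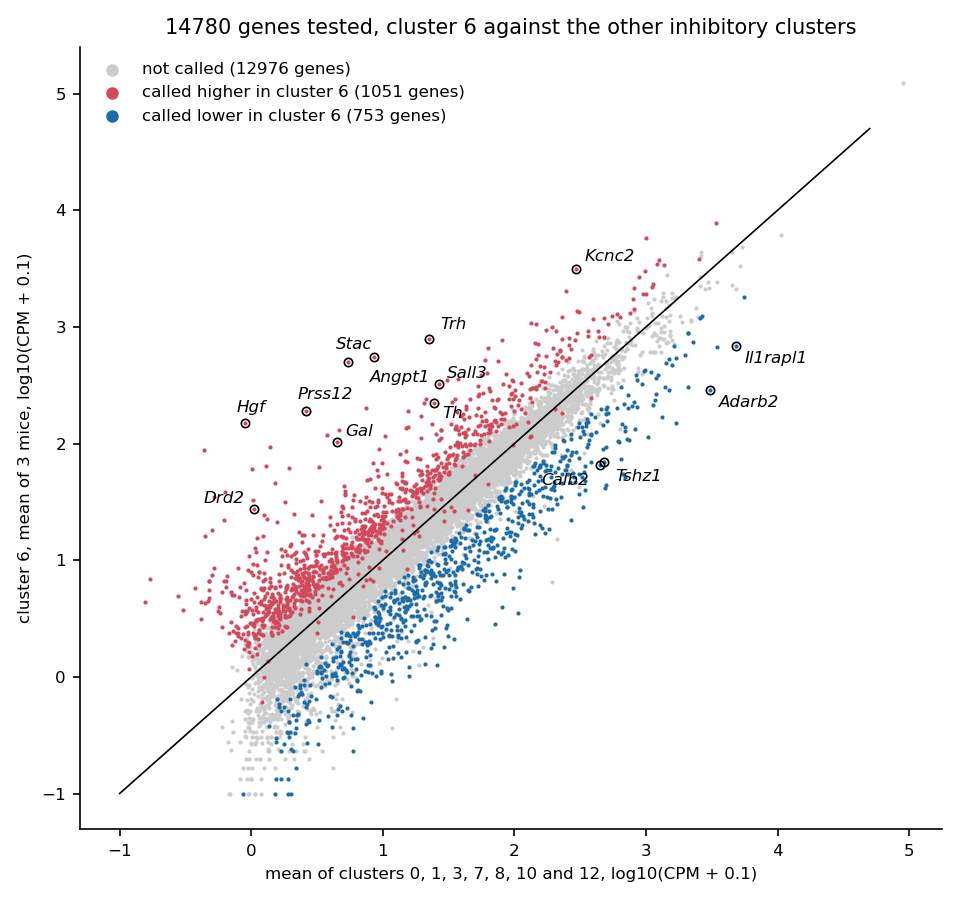
Mean CPM of the 14780 genes tested in cluster 6 (vertical) and in the mean of the other 7 clusters (horizontal), both as log10 of CPM + 0.1, with called genes in colour and the line of equal levels. Hgf, Prss12, Stac, Angpt1 and Trh lie far above the line, and Il1rapl1, Adarb2 and Tshz1 below it.

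Among the 20 genes that lead the higher set under the naming rule, Hgf came first with a log2 fold change of 8.68 ± 0.21 (SE). Tyrp1, known as an enzyme of melanin synthesis, was at 81.9, 68.6 and 115 CPM in the 3 mice and at 0.337 CPM in the 7 clusters (8.17 ± 0.28). Stac, whose protein associates with calcium channels, was at 440, 559 and 512 CPM against 5.37 (6.72 ± 0.19). Angpt1, a ligand of the vascular receptor Tie2, was at 543, 520 and 603 CPM against 8.53 (6.28 ± 0.17). Outside the inhibitory group, Stac reached 215 ± 16.0 CPM in cluster 2, where the projection neuron markers were highest, and Angpt1 263 ± 175 in cluster 18, 191 ± 38.5 in cluster 9 and 180 ± 8.47 in cluster 2. Stac and Angpt1 each overlap a gene on the opposite strand (Gm43236 and Gm17473). Prss12 (6.20 ± 0.22), Drd2, the dopamine D2 receptor (5.44 ± 0.30), Trh (5.21 ± 0.24), Slc6a3, the dopamine transporter (5.51 ± 0.34), and Ddc, aromatic amino acid decarboxylase (4.97 ± 0.23), also belong to the 20. The others are Ppp1r1c, 1700042O10Rik, Gm8239, Gm34609, Plekhd1, Fibcd1, Tmem144, Ankle1, Syndig1l, D16Ertd472e and Svep1, with log2 fold changes from 4.88 for Svep1 to 6.84 for Ppp1r1c. 1700042O10Rik lies antisense to Ddc, and reads of the pair may not have been told apart.

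Genes of GABA handling and of dopamine handling were found together in cluster 6. Of the 15 genes listed as GABA and co-transmitter machinery, 12 were tested, 8 were higher and none was lower, beside 7.11% and 5.09% of all genes tested, with a median log2 fold change of 1.63 against -0.02 over all genes tested. The 8 included Gad2, Slc6a11, Abat, Th, Ddc, Slc6a3 and Slc18a2. Gad1 did not stand apart, with 727, 618 and 508 CPM against 688 in the other clusters (log2 fold change -0.09 ± 0.17), nor did Slc32a1 with 262, 213 and 188 against 204 (0.09 ± 0.14). Gad2 was at 964, 799 and 630 CPM against 259 (1.69 ± 0.18), and its lowest library in cluster 6 exceeded the highest of the other 21, 476. Outside these 8 clusters, cluster 15 had a like level of Gad2, 642 ± 111 CPM. Slc6a11, a GABA transporter of the plasma membrane (40.8 ± 10.6 CPM against 13.9, with 995 in cluster 9), and Abat, which degrades GABA (293 ± 14.1 against 131), were higher as well. In the GABA pathway, then, Gad2, Slc6a11 and Abat were higher, while Gad1 and the vesicular transporter were within the range of the other clusters. Gad1 overlaps Gad1os on the opposite strand, as Slc18a2 and Sema3e, named below, overlap Gm29261 and Gm4128.

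The dopamine genes were read from a list of 20 genes added after their values had been seen, of which 13 were tested, 6 were higher and none was lower, beside 7.11% and 5.09% of all genes tested. Since the list was chosen for these values, nothing is read from the count; the median log2 fold change of the list was 0.65. Th, which makes L-DOPA from tyrosine, was at 293, 183 and 192 CPM (222 ± 61.2). The next clusters were cluster 0 at 49.0 ± 5.79, cluster 12 at 36.4 ± 8.58 and cluster 3 at 34.1 ± 8.03 (log2 fold change against the 7 clusters 3.32 ± 0.19), and among all clusters cluster 15 came second at 98.5 ± 27.2. Ddc, which turns L-DOPA into dopamine, was at 53.7, 46.4 and 37.4 CPM against 1.41. Slc6a3 was at 34.2, 19.2 and 14.4 CPM against 1.21, with cluster 7 next at 6.99, and its log2 fold change of 5.51 became 7.20 without mouse 2. Slc18a2, which loads monoamines into vesicles, was at 42.4, 36.2 and 30.6 CPM against 5.90 (2.63 ± 0.18). Drd2 was at 30.5, 25.6 and 25.5 CPM against 0.942. Gch1, which starts the synthesis of the tetrahydrobiopterin that Th needs, was at 15.7, 13.6 and 19.1 CPM against 0.343 (5.23 ± 0.37). Each of these 6 genes was higher against all 7 clusters singly. Qdpr and Pts, further genes of tetrahydrobiopterin, had log2 fold changes of 0.11 ± 0.21 and 0.65 ± 0.18, and Maoa, which degrades dopamine, had one of -0.20 ± 0.18, so that the difference did not extend to every step.

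**Figure D3:**
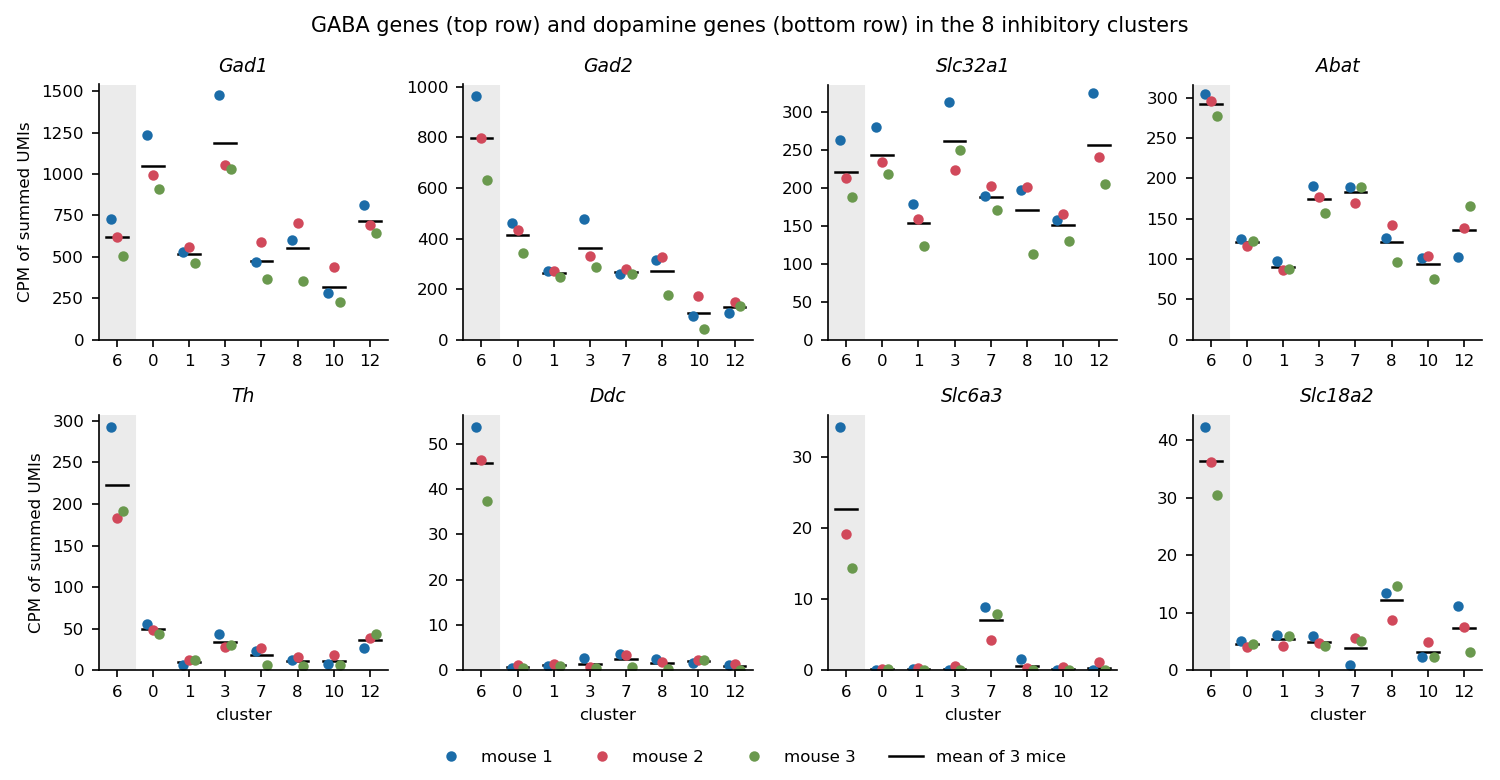
CPM of 4 GABA genes and 4 dopamine genes per mouse in the 8 inhibitory clusters, each on its own linear axis from 0, with the mean of 3 mice as a bar and cluster 6 shaded. Gad1 and Slc32a1 of cluster 6 lie among the other clusters, whereas Th, Ddc, Slc6a3 and Slc18a2 of every mouse lie above all other libraries.

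In single nuclei thinned to 3000 UMIs, Th had a UMI in 44.3 ± 4.42% of cluster 6 nuclei (73.7% without thinning) and in 1.43% to 3.77% of nuclei of the 5 non-neuronal clusters. Slc6a3 had one in 6.80 ± 2.37% and Drd2 in 6.86 ± 2.14%, against at most 0.298% and 0.476% in those clusters. Ddc was seen in 11.1 ± 2.22%, but in 15.8 ± 15.5% of the 47, 196 and 18 nuclei of cluster 16, so that its share per nucleus is not read as expression. As summed counts, Ddc was at 45.8 ± 8.18 CPM in cluster 6 and at 51.6 ± 29.9 CPM in cluster 16, and in none of the other 7 clusters compared above a mean of 2.53. Gad2 was seen in 84.8 ± 5.39% of nuclei, but also in 12.8% to 31.2% of those of the non-neuronal clusters, where the gene should be absent. Clusters 10 and 12, which belong to the 7 compared, lay within that range for Gad2, at 17.0% and 23.7%. Their shares for Gad1 were 50.2% and 82.6%. Trh and Th occurred together in 28.5 ± 3.77% of cluster 6 nuclei, against 26.2% as the product of their single shares, and the joint share was above the product in 3 of 3 mice. This excess was not particular to the pair. Hgf and Stac (23.2% against 19.9%) and Stac and Sall3 (37.4% against 34.8%) showed one too, while Prss12 and Gal did not (5.46% against 7.25%).

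Of the 6 genes listed as periglomerular markers (Th, Slc6a3, Ddc, Pax6, Calb1, Calb2), 5 were called higher and Calb2 lower, beside 7.11% and 5.09% of all genes tested. Pax6 was at 368, 271 and 296 CPM, and cluster 12 had a like level, 321. Outside the clusters compared, Pax6 was seen in 42.4% of thinned nuclei of cluster 9 and 38.3% of cluster 15, against 56.7% in cluster 6. Calb2, the calcium-binding protein calretinin, was at 66.1 ± 27.0 CPM against 448, most of it from cluster 7 at 2446. Calb1, calbindin, was higher by the log2 scale (1.60 ± 0.30) but stood at 8.26 ± 1.00 CPM against a plain mean of 15.2, since cluster 8 alone had 97.6. When the nuclei of the other 7 clusters were summed per mouse its log2 fold change was -0.30. Calb2 lost its call without mouse 1 (-1.10). The summed level of the 6 genes was 593 to 814 CPM in cluster 6 and 2552 in cluster 7, where it was highest through Calb2. The 5 granule cell markers (Meis2, Penk, Synpr, Pbx3, Tac1) summed to 3954 to 4687 CPM in cluster 6 and to 4133 to 8948 in the libraries of the other 7 clusters, so that the ranges overlapped, with none higher and 2 lower in cluster 6, beside the same shares of all genes.

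The other classes of interneuron did not set cluster 6 apart by their summed markers. The 5 markers of deep short axon cells (Sst, Npy, Nos1, Chrna2, Chrm2) summed to 697 to 860 CPM in cluster 6, above the mean of the periglomerular sum (677), with 728 of the mean of 780 from Chrm2, a muscarinic receptor gene. The libraries of the other 7 clusters ran from 143 to 2395, cluster 11 was the highest of all at 3812, and no gene of the list was called. The 5 markers of external plexiform interneurons (Pvalb, Crh, Vip, Cck, Tacr3) summed to 85.7 to 124 CPM, within the 60.4 to 280 of the other libraries, with 2790 in cluster 15 and again no call. The 5 markers of immature neurons (Dcx, Sox11, Sox4, Igfbpl1, Cd24a) summed to 452 to 546 CPM, within 320 to 890. Of these Sox11 and Igfbpl1 were lower, and Cd24a, at 22.9, 5.35 and 7.64 CPM, was called higher, beside 7.11% higher and 5.09% lower of all genes tested. The call of Cd24a was lost without mouse 1 or mouse 3 (log2 fold changes 0.51 and 1.11), with the mouse as a replicate block (0.91) and under 3 further alternatives (0.66 to 0.83).

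Transcription factors of bulb interneurons were more often lower than higher. Of 50 tested, 8 were higher and 20 lower, beside 7.11% and 5.09% of all genes tested, with a median log2 fold change of -0.64. Sall3, a zinc finger factor known in dopaminergic bulb neurons, was at 364, 275 and 330 CPM against 26.5 (3.76 ± 0.15), with no overlap between cluster 6 and the 21 libraries. Outside the clusters compared, Sall3 was seen in 25.7% of thinned nuclei of cluster 9 and 26.8% of cluster 15, against 56.2% in cluster 6. Nr4a2, a nuclear receptor needed for midbrain dopamine neurons, was at 141, 128 and 171 CPM against 23.5 (2.62 ± 0.26), again without overlap. Etv1, an ETS factor (664 ± 91.4 CPM against 197), Pax6 (2.35 ± 0.19), Nr2f1, a nuclear receptor (87.6 ± 10.2 against 45.7, with 198 in cluster 12), and Cux2, a homeobox factor (67.8 ± 14.5 against 27.5), were higher with some overlap. Sox5 and Rorb were called higher while cluster 7 stood above cluster 6 for both. Rorb, at a log2 fold change of 1.04, fell below the threshold without mouse 3 (0.77), with the mouse as a replicate block (0.95) and under 3 further alternatives (0.59 to 0.94), and Sox5, at 1.13, when the nuclei of the other clusters were summed per mouse (0.64). Among the lower ones, Tshz1 was at 69.4, 103 and 35.2 CPM against 483 (-2.67 ± 0.25) and Bcl11a at 61.9, 68.4 and 33.5 against 309 (-2.46 ± 0.20), and both lay below all 21 libraries. Nfib, Zic1, Bcl11b and Nfix, factors of several kinds, were lower as well.

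**Figure D4:**
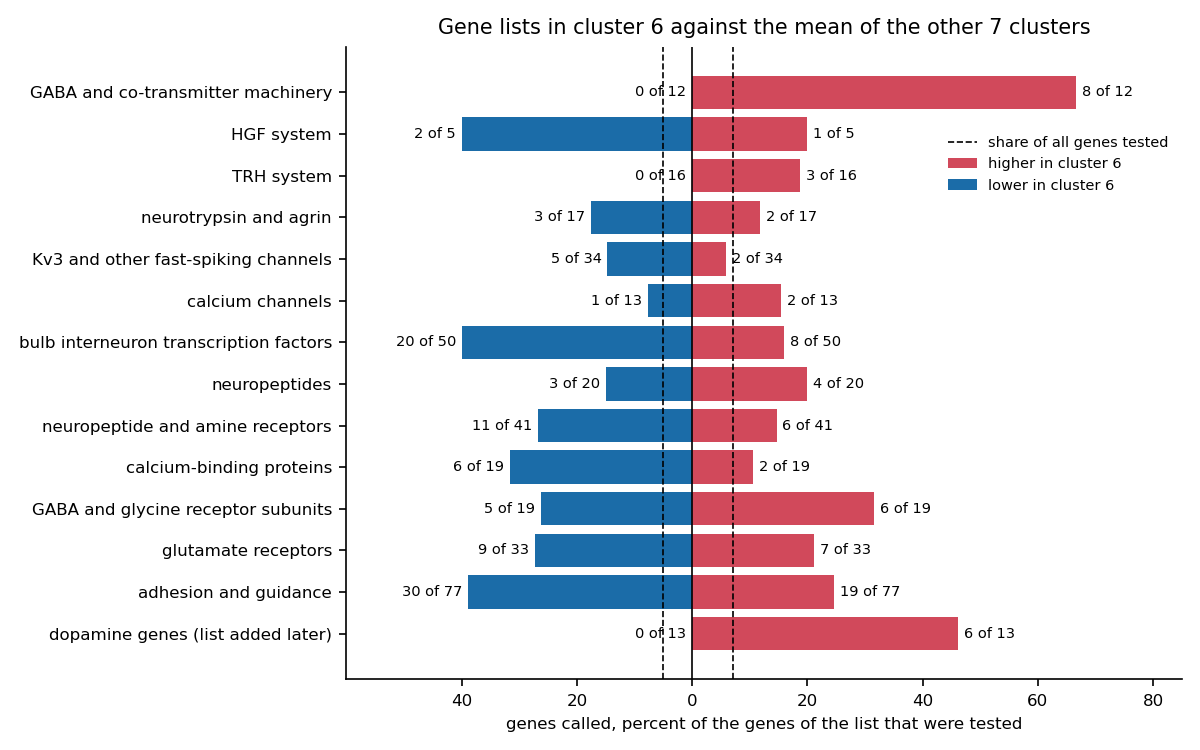
Share of each gene list called higher (right) or lower (left) in cluster 6 against the mean of the other 7 clusters, with the number of genes at the end of each bar and dashed lines at the share over all genes tested, 7.11% and 5.09%. Machinery of transmitters has 8 of 12 genes higher and none lower, and transcription factors have 20 of 50 lower.

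Around Trh, the genes that process peptide precursors were partly higher. Of 17 genes of the TRH system 16 were tested, and 3 were higher and none lower, beside 7.11% and 5.09% of all genes (median log2 fold change 0.05). Besides Trh these were the proprotein convertases Pcsk1, at 179, 161 and 215 CPM against 36.7 (2.38 ± 0.19), and Pcsk2, at 1038, 797 and 911 against 366 (1.37 ± 0.12). Both were above all 21 libraries of the clusters compared, but outside them Pcsk1 was at a like level in cluster 13, 161 ± 60.6 CPM, and Pcsk2 reached 541 in cluster 4. Pam, which amidates peptides, missed the fold threshold at 0.99 ± 0.16, and Trhr, a TRH receptor, was not called at 1.82 ± 1.04 CPM against 6.50. Gal, the galanin precursor, was at 132, 87.4 and 88.7 CPM against 4.40 (4.46 ± 0.17), and Nts, the neurotensin precursor, at 15.1, 4.85 and 4.67 against 0.852 (3.01 ± 0.47), led in both by mouse 1. Of 20 tested neuropeptide genes, with a median of -0.53, these 2, Trh and the neurexophilin Nxph1 were higher, although Nxph1 was higher still in cluster 7 (5361 against 3762). Cartpt, Penk and Pnoc were called lower, Penk at 36.5 ± 9.70 CPM against 108. Penk lost the call without mouse 1 (log2 fold change -1.15), Pnoc without mouse 1 or mouse 2 (-1.13 and -1.29), and Cartpt without any 1 of the 3 (-1.54, -2.26 and -1.26). Pnoc also lost it under 4 further alternatives (-0.80 to -1.10) and Cartpt with clusters 10 and 12 left out of the mean (-0.45).

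The partners of the other markers did not move with them as a group. The shares over all genes tested, 7.11% higher and 5.09% lower, stand beside each count that follows. Of 13 genes of the HGF system only 5 had enough counts, and of these Hgf was higher and 2 were lower (median log2 fold change -1.25), namely its receptor gene Met at 3.21 ± 1.15 CPM against 16.4 and Spint2, an inhibitor of the protease that activates HGF, at 3.16 ± 1.51 against 9.23. The call of Met was lost once nuclei above 1.5 times the median UMIs were left out (log2 fold change -0.88), and that of Spint2 without mouse 1 or mouse 2 (-1.34 and -1.20). Among 17 genes around neurotrypsin, with a median of 0.05, Prss12 and the synaptic adhesion gene Lrrtm3 were higher and Cbln2, Serpini1 and Lrrtm4 lower. Lrrtm3 was no longer called when the nuclei of the other clusters were summed per mouse (0.90), nor was Lrrtm4 without mouse 3 (-0.94) or without nuclei above 1.5 times the median UMIs (-0.88). Serpini1, neuroserpin, was at 155 ± 30.8 CPM against 504, and Agrn, the substrate agrin, was at 46.1 ± 10.4 against 43.4. Among 34 potassium and other channels listed with Kv3 (median -0.14), Kcnc2 and Kcnq3 (794 ± 48.4 against 229, with 636 in cluster 12) were higher, a share below that of all genes, and 5 were lower, among them Kcnb2 and Kcnq5. Of 13 calcium channel genes (median 0.14), Cacnb2 (1341 ± 166 CPM against 307) and Cacna2d2 (226 ± 10.3 against 33.2), both auxiliary subunits, were higher and the T-type channel gene Cacna1h was lower. Cluster 15, outside the clusters compared but with the inhibitory markers Gad1 and Gad2, stood above cluster 6 in Cacnb2 and Cacna2d2, with means of 1529 and 271 CPM.

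Receptor genes were called in both directions. The counts of the lists that follow stand beside 7.11% higher and 5.09% lower over all genes tested. Of 41 receptors for peptides and amines, 6 were higher and 11 lower, with a median log2 fold change of 0.18. Htr7, a serotonin receptor, was at 200, 166 and 155 CPM against 19.5 (4.34 ± 0.15), with cluster 10 next at 77.5 ± 15.5 and cluster 11, outside the clusters compared, at 103. Adra1b, an adrenergic receptor, was at 25.6 ± 3.85 against 4.68. Cluster 15, which was not among the clusters compared but carried inhibitory markers, had a higher Adra1b level, 93.4. Neither gene overlapped the 21 libraries of the clusters compared. Npy1r (1.98 ± 0.973 CPM against 18.4) and the opioid receptor gene Oprm1 (33.4 ± 18.5 against 208) were below all 21 libraries. Among 33 glutamate receptor and auxiliary genes (median -0.16) 7 were higher, led by Grin2c (67.6 ± 17.4 against 9.74, with 52.8 in cluster 7) and Shisa9 (1065 ± 123 against 146, with 2023 in cluster 4), and 9 lower, led by Grin2a (108 ± 35.9 against 712) and Gria3 (106 ± 65.9 against 738). Of 19 GABA and glycine receptor subunits (median 0.41), 6 were higher, among them Gabrg3 and Gabrd (the latter at 0.99 and not called with the other nuclei summed per mouse), and 5 lower, among them Glra2 and Gabra5. Of 77 adhesion and guidance genes (median -0.38) 19 were higher and 30 lower. Sema3e, a secreted guidance cue, was at 1100, 988 and 1150 CPM against 134 (3.94 ± 0.15), most of the latter from cluster 3 at 588 ± 93.4. Kit, a receptor kinase, was at 137 ± 18.3 against 14.99, with 86.1 ± 23.2 in cluster 10 and a higher level, 732, in cluster 15. Ret, the receptor kinase of GDNF ligands, was at 23.4 ± 4.26 against 3.85, with cluster 7 next at 17.0 ± 2.19. Tenm4 was at 132 ± 39.4 CPM against 826 and Epha6 at 169 ± 58.8 against 1315, both below all 21 libraries. For 19 calcium-binding protein genes the count was 2 higher and 6 lower (median -0.57). For some lists the direction depended on the cluster compared. Adhesion and guidance genes were 8 higher and 40 lower against cluster 8 (median -1.14) but 24 higher and 22 lower against cluster 0 (median 0.31). The median of the peptide and amine receptors was -0.80 against cluster 8 and 0.06 against cluster 0, and that of the GABA and glycine receptor subunits -0.33 and 0.44. The TRH system split, with 3 higher and 4 lower genes against cluster 8 and 4 higher and 3 lower against cluster 0. Transcription factors were 6 higher and 19 lower of 50 against cluster 8, and 8 higher and 15 lower against cluster 0. Over all genes tested the shares also differed, with 4.07% higher and 6.87% lower against cluster 8 and 9.98% and 7.31% against cluster 0.

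The clusters closest to cluster 6 by mean profile were cluster 8 (Pearson r = 0.926 across genes of mean log2(CPM + 1)) and cluster 0 (r = 0.915), the latter hardly ahead of clusters 3, 7, 12 and 1 (0.914, 0.912, 0.911 and 0.910), a description across genes, which are not replicates. Against cluster 8, 602 genes were higher (4.07% of those tested) and 1015 lower (6.87%), and against cluster 0, 1475 were higher (9.98%) and 1080 lower (7.31%). More genes were called against cluster 0 than against any of the other 6 clusters, so that closeness depends on the measure. Hgf, Tyrp1, Angpt1 and Slc6a3 were among the 8 leading higher genes in both. Foxp2, a forkhead factor, was at 17.0, 21.6 and 27.6 CPM in cluster 6 and at 1637 in cluster 8 (-6.21 ± 0.55). Fam19a1 was at 6.39 ± 0.130 CPM against 1321 in cluster 8, whose libraries ranged from 157 to 2529, and its log2 fold change of -7.69 became -2.44 once nuclei with more than 1.5 times the median UMIs were left out. Against cluster 0, Sema3c was at 30.5 ± 5.50 CPM and 306 (-3.39 ± 0.40) and Lgr6, a receptor for R-spondins, at 16.3, 35.8 and 15.7 CPM and 225 (-3.30 ± 0.32).

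The genes that lead the lower set against all 7 clusters were Gm38505, Adarb2, Zfp804b, Inhba, Gm20754, A830031A19Rik, Dscaml1 and Il1rapl1, with log2 fold changes from -3.16 to -2.82. Adarb2, a member of the RNA-editing deaminase family, was at 311, 392 and 152 CPM against 3073, and Il1rapl1, a synaptic adhesion protein, at 539, 1072 and 430 against 4816. Mouse 2 was the highest of the 3 for both. It was also the highest for Kcnb2, at 462, 1067 and 477 CPM against 3445.

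Within the cluster these 3 genes were carried by a minority of nuclei. The 20 genes that varied most among nuclei after thinning, out of 4559 ranked by the variance divided by the mean, include Malat1, Lrp1b, Thsd7b, Il1rapl1, Adarb2, Kcnb2, Pde1c, Asic2, Chrm2 and, as 18th, Trh. The ratio of variance to mean was 7.18, 8.64 and 8.16 for Il1rapl1 and 6.85, 4.99 and 5.73 for Trh in the 3 mice, while the median over all genes ranked was 1.24. Il1rapl1 and Kcnb2 counts correlated with r = 0.677, 0.708 and 0.687 across the nuclei of each mouse (304, 902 and 184 nuclei of 1 library each, at equal depth), the highest value among the 20 genes. Ptprt and Chrm2 followed with a mean r of 0.583. These values are descriptions across nuclei that share a library.

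Nuclei with at least 5 thinned UMIs of both Il1rapl1 and Kcnb2, a threshold set after the values were seen, numbered 14, 115 and 8, or 4.61%, 12.7% and 4.35% of the cluster 6 nuclei of mice 1, 2 and 3. In cluster 0, where both genes are abundant, the share was 94.2 ± 1.34%. It was 12.9 ± 8.63% in cluster 7, 17.0 ± 7.002% in cluster 8 and 42.5 ± 8.78% in cluster 10, and mouse 2 had the highest share in each of these and in clusters 0, 1 and 3, but not in cluster 12. Among these 137 nuclei, 81.0% had a UMI of Adarb2, against 14.7% of the other 1253. Pooled over mice, with 115 of the 137 from mouse 2, their share with a UMI was 17.5% against 33.4% for Hgf, 21.9% against 46.0% for Th, 50.4% against 62.0% for Trh and 85.4% against 93.8% for Kcnc2. For Prss12 it was 34.3% against 40.1%, with the opposite order in mouse 1 (57.1% against 39.3%). Gad1 was seen more often in these nuclei, in 85.4% against 79.7%, and in 3 of 3 mice, beside 30.1% to 33.9% in the 5 non-neuronal clusters. Gad2 went the other way, in 80.3% against 86.8%, and was lower in 3 of 3 mice. The 137 nuclei had been deeper before thinning, with a median of 16071 UMIs against 9237. Mouse 2, where they were most frequent, is also the library with the most retained nuclei, 21105 against 5845 and 4753. Nuclei had been gated on scatter against doublets when sorted, no doublet caller was run here, and the part of doublets in these values was not tested. When nuclei above 1.5 times the median UMIs of their cluster and mouse were left out (58, 215 and 49 of cluster 6), 986 genes were higher and 726 lower than in the other 7 clusters, and Il1rapl1 was lower by a log2 fold change of -3.59 in place of -2.82.

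A further pattern among nuclei ran with Trh itself. After thinning, 846 nuclei had a Trh UMI and 544 had none. Gal, galanin, was seen in 32.8%, 25.4% and 26.7% of nuclei with Trh and in 5.51%, 5.92% and 5.06% of those without. In the other 7 inhibitory clusters the mean share of Gal was 0.747% to 1.96%, with no library above 2.44%, and in the 5 non-neuronal clusters 0.741% to 3.04%. In cluster 2, where the projection neuron markers were highest, Gal was seen in 10.8 ± 2.46%. Angpt1 went the other way, with 49.2%, 45.7% and 36.2% of nuclei with Trh and 69.3%, 73.1% and 78.5% of those without. Its share in the 5 non-neuronal clusters ran from 1.11% to 33.5%, the latter in cluster 9, and in the other 7 inhibitory clusters from 0.754% to 4.49%. Kit resembled Angpt1, at 14.8 ± 0.864% with and 37.4 ± 3.82% without Trh, beside 0% to 20.96% in the non-neuronal clusters, the latter in cluster 18. Among the other 7 clusters compared, Kit was seen in 20.1 ± 3.87% of nuclei of cluster 10, above the share with Trh, and in at most 1.41% in the other 6. In cluster 15, which also carried inhibitory markers, Kit was seen in 66.4 ± 10.5%. In each of these 3 genes the shares with and without Trh did not overlap between mice. Ret was seen in 9.26 ± 2.75% with and 3.64 ± 0.988% without (at most 0.476% in the non-neuronal clusters, and 4.69% in cluster 7), Prss12 in 42.6 ± 4.78% and 31.4 ± 2.01%, and Th in 48.1 ± 6.11% and 38.5 ± 3.61%, each higher with Trh in 3 of 3 mice. Hgf, at 34.5 ± 4.37% and 28.5 ± 4.80%, was higher with Trh in 2 of 3 mice, and Kcnc2, at 94.3 ± 1.75% and 92.7 ± 1.98%, was nearly the same. Of the 16 genes compared, 9 were higher with Trh in 3 of 3 mice, counting Ddc, whose share per nucleus is not read as expression, 3 were lower in 3 of 3 (Angpt1, Kit and Sema3e) and 4 were mixed. The same shares over all genes were not computed, so nothing is read from these counts. A nucleus without a Trh UMI at this depth may still hold Trh RNA, and these genes were chosen with their levels in the cluster known.

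**Figure D5:**
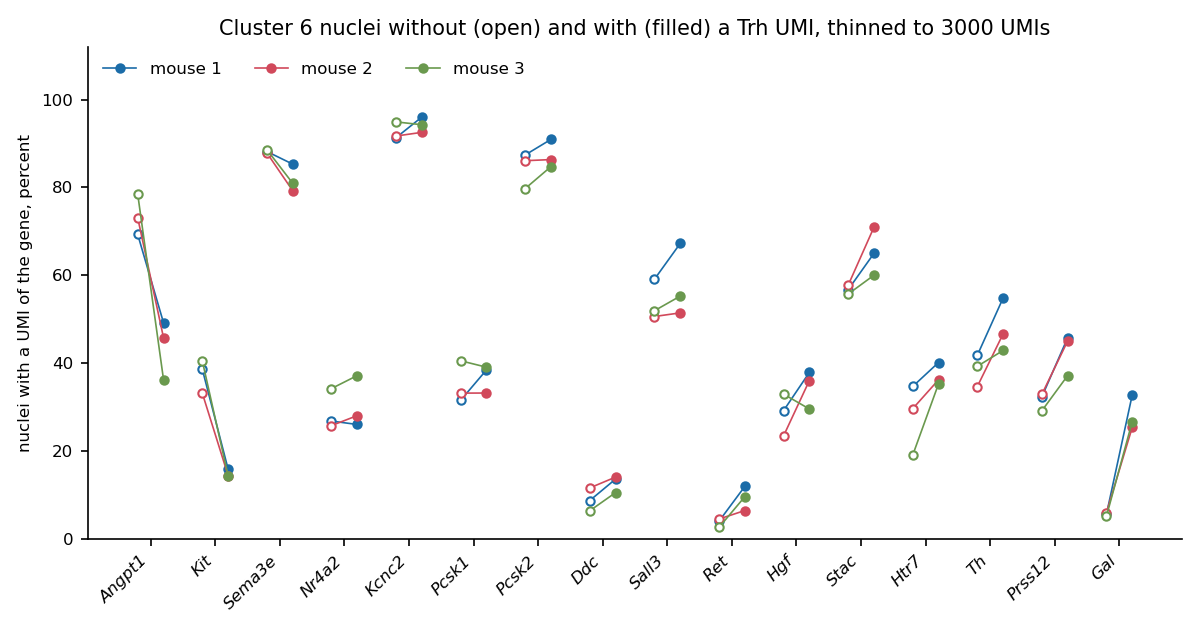
Share of cluster 6 nuclei with a UMI of each of 16 genes among nuclei without (open) and with (filled) a Trh UMI, joined per mouse, all nuclei thinned to 3000 UMIs. Angpt1 and Kit fall from left to right in every mouse, and Gal goes from between 5.06% and 5.92% to between 25.4% and 32.8%.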

How the data were processed

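Nuclei from the olfactory bulbs of 3 mice were sequenced as 1 library per mouse. UMI counts per gene and barcode were deposited by the authors as made with Cell Ranger 3.0.2 against GRCm38, with 7718, 29829 and 6876 barcodes. Strand and intron settings of the counting are not given in the sources used here. In the deposited table of retained nuclei, the authors kept nuclei with at least 1000 genes and at most 5 percent mitochondrial counts, merged the mice by canonical correlation in Seurat and clustered them; 5845, 21105 and 4753 nuclei remained, with 58526996, 213891496 and 62929479 UMIs. UMI totals recomputed from the matrices equalled the table for 100% of nuclei. Retained barcodes shared between libraries numbered 39, 8 and 35 for the 3 pairs of mice. Depth sets the precision, and intervals cover counting error only.

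The cluster was taken as deposited. Counts were summed per mouse over each of clusters 0, 1, 3, 6, 7, 8, 10 and 12 (24 libraries, 645037 to 44969722 UMIs, cluster 6 from 2355688 to 10098588). They were fitted with edgeR 4.0.16 (R 4.3.3, quasi-likelihood, TMM, filterByExpr, Benjamini-Hochberg over 14780 of 31055 genes), tested on simulated data beforehand. Calls needed a log2 fold change beyond 1 in either direction besides an adjusted p below 0.05. The mice pair the libraries, since each gave a library of every cluster: deviations of same-mouse libraries correlated with a mean r of 0.186 over 84 pairs, and of different mice with -0.0909. Deviations were taken from the mean of each cluster over its mice, so the second value follows largely from the first. A fit with the mouse as a block, DESeq2 1.42.0 and other alternatives were run. Named genes were the 20 with the highest fold change among genes called higher, at 20 CPM or more in cluster 6 and above all other libraries, the 8 lowest by the mirrored rule, list members, and 8 per direction against clusters 8 and 0. Single-nucleus shares used Python 3.11.15 and thinning without replacement. Gene positions came from GENCODE M21, in which 30934 identifiers were found, and promoters from RefSeq. Proteins, and a promoter of Angpt1, were not used here, and a few members of the lists are counted but not reported here by name. The cluster, its markers, the gene lists and the alternatives were chosen with earlier results of these data known.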

Additional observations from a re-analysis of the deposited data

How the results depend on the processing

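With each mouse left out in turn, the genes higher than the mean of the other 7 clusters numbered 970 to 1076 and the lower ones 624 to 659. Against cluster 8 they numbered 495 to 552 and 819 to 902, and against cluster 0 1233 to 1462 and 880 to 998. The share of nuclei ran from 4.14% to 4.81%. The ratio to the other 7 clusters ran from 149 to 360 for Hgf, 31.0 to 42.5 for Trh, 61.9 to 115 for Prss12 and 10.3 to 10.7 for Kcnc2, and the share of nuclei with a UMI from 31.1% to 32.7%, 57.6% to 60.4%, 36.9% to 40.3% and 93.2% to 94.3%.

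The mouse as a replicate block gave 1065 higher and 797 lower genes against the mean, 631 and 1071 against cluster 8, and 1538 and 1115 against cluster 0. It changed no call of a gene named by the rule and 2 of the 169 list members called, Cd24a and Rorb, which went to 0.91 and 0.95. DESeq2 gave 1095 and 751, 611 and 1019, and 1535 and 1014 in the same order. When the nuclei of the other 7 clusters were summed per mouse to 1 library, 1175 genes were lower in place of 753, and the cause was not tested.

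The naming rule picks large called differences without overlap between libraries, so the genes it names could hardly change in a refit of the same counts. Of 699 values that the alternatives gave for 61 comparisons of single genes named by the rule, 698 kept their direction and their side of the threshold. The exception was Nov, lower in cluster 6 than in cluster 8 by a log2 fold change of -6.44, which became -2.09 and was no longer called once nuclei above 1.5 times the median UMIs were left out, an alternative chosen after seeing the data. Of 169 list members called against the mean of the 7 clusters, 147 to 168 kept the call under each alternative, 149 to 154 with 1 mouse left out. The lowest number came with clusters 10 and 12 left out of the mean. Calb1 reversed, to -0.30, when the other nuclei were summed per mouse, where Sox5 (0.64), Lrrtm3 (0.90) and Gabrd (0.99) also lost the call. Met lost it, at -0.88, without the nuclei above 1.5 times the median UMIs. Over the 8 clusters as the denominator, the share of nuclei was 7.23%. The shares of nuclei with a UMI moved with depth by construction. They were 57.2% unthinned and 22.7% at 2000 UMIs for Hgf, 71.2% and 54.6% for Trh, 61.0% and 28.1% for Prss12, and 95.6% and 90.1% for Kcnc2. With 3 mice and 187 to 915 nuclei each, genes near 0 in a cluster rest on few UMIs there, and the log2 fold change of Slc6a3, at 1.21 CPM in the other 7 clusters, went from 5.51 to 7.20 without mouse 2.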
